A study of Mus musculus with 118 samples.

Results

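The Nkx genes are homeobox genes of the NK families, which encode transcription factors that set up organs and cell types of the embryo. The 9 members described here are Nkx2-1, Nkx2-2, Nkx2-3, Nkx2-4, Nkx2-5, Nkx2-9, Nkx3-2, Nkx6-1 and Nkx6-2. Out of 26180 genes with a curated RefSeq transcription start site (TSS) on mm10, they were chosen by name, with earlier results of these data known. Each was set against the peaks of RING1B, SUZ12 and PCGF2 in mouse embryonic stem cells (ESCs), both over the promoter, taken as the TSS plus or minus 2500 bp, and over the gene body. The peaks come from cChIP-seq, a ChIP-seq calibrated with chromatin of human HEK293T cells (an embryonic kidney line) as an internal standard.

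The series given here holds 118 samples, of which the 12 untreated ChIP samples of 4 groups lie behind the lists, with Input samples as control in the peak calling. PRC1CPM cells contributed 3 samples for each of RING1B, SUZ12 and PCGF2, and PRC1CKO cells another 3 for SUZ12. PRC1CPM is clone 41 of E14 ESCs, carries Ring1a with the I50A and D53K substitutions and a floxed Ring1b that Cre can switch from wild type to I53A and D56K, and expresses ERT2-Cre from Rosa26. PRC1CKO is clone B9 of E14 ESCs, is Ring1a-/- and Ring1b fl/fl, and carries the same ERT2-Cre. In these 12 samples neither line had received tamoxifen, so RING1B was still wild type, while RING1A was already mutant in PRC1CPM and absent from PRC1CKO. Each line is a single clone. The RING1B list drew as well on PRC1CKO samples for RING1B, untreated and tamoxifen-treated, that are not among the 118 and were not analysed here. The treated ones served to drop RING1B peaks that did not lose signal on tamoxifen. The peak lists hold no expression, so ESC marker genes could not be looked at.

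Polycomb group (PcG) proteins keep developmental genes silent in cells that do not use them. RING1B is the catalytic subunit of PRC1, which ubiquitylates histone H2A. SUZ12 is a core subunit of PRC2, which methylates lysine 27 of histone H3, and PCGF2 belongs to canonical PRC1, whose CBX subunits bind that methylated lysine. In ESCs these complexes typically sit on CpG-rich promoters of genes for transcription factors of later lineages. The Nkx genes encode such factors, and the CpG content of their promoters, which differed between members, is given below. The lists give positions only and combine the samples into a single set, so no height, depth or spread between replicates can be attached to a peak, and no test was made. Because the lists were called by different rules, a difference in width between RING1B, SUZ12 and PCGF2 cannot be told apart from a difference in calling.

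Promoter sequences are shown for the members with the widest and the narrowest RING1B peak, Nkx2-3 and Nkx2-9, and for Nkx2-2 and Nkx2-4, which lie close together on chromosome 2 and differ in width. All are the 250 bases before the start in RefSeq on GRCm38.p6, read 5′ to 3′ in the direction of transcription, with each CG dinucleotide in capitals. Nkx2-3 was read from the plus strand at chr19:43612075-43612324. Nkx2-9 was read from the minus strand at chr12:56613285-56613534. Nkx2-2 came from the minus strand at chr2:147186403-147186652, and Nkx2-4 from the minus strand at chr2:147085346-147085595.
Nkx2-3: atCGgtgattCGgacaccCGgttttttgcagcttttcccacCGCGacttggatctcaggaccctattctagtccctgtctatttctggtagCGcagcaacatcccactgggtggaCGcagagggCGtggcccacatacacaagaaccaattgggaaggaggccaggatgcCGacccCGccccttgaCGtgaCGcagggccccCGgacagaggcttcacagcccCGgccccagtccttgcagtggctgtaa
Nkx2-9: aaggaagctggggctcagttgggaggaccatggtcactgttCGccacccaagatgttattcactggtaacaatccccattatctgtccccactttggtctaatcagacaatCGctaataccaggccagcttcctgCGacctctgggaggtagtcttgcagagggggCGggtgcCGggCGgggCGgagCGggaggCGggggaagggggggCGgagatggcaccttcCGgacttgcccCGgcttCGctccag
Nkx2-2: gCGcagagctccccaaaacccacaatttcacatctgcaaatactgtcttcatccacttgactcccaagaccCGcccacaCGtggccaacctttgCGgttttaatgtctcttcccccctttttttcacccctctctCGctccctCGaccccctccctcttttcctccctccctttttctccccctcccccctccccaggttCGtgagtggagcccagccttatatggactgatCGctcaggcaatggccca
Nkx2-4: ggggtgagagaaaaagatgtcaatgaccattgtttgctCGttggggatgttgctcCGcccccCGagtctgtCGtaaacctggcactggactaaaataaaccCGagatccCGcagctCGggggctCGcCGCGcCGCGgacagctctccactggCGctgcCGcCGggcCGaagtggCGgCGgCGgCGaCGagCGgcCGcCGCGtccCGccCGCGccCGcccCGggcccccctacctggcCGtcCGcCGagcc

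The 4 sequences differed widely in CG content. The Nkx2-4 promoter held 33 CG dinucleotides, more than 96.0% of the 32851 RefSeq promoters of the same length. The Nkx2-3 promoter held 14, the Nkx2-9 promoter 13 and the Nkx2-2 promoter 8, against a median of 6 over all promoters. Among the members not shown, Nkx6-1 held 30, Nkx6-2 held 26, Nkx3-2 held 21, Nkx2-1 held 9 and Nkx2-5 held 8. The core TNAAGTG, to which NK2 factors are known to bind, was searched on both strands and was found once, in the Nkx2-2 promoter, and 10.1% of all promoters held it. The homeodomain core TAATTA, searched likewise, was in 0 of the 9 promoters and in 4.84% of all promoters. These matches describe the letters in this window alone.

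To ask whether the Nkx genes lay in Polycomb domains, the promoters were first compared with each list. All 9 members had a RING1B peak at the promoter, whereas 53.2% of all genes did. All 9 also had a SUZ12 peak, against 24.8% of all genes, and all 9 had a PCGF2 peak, against 13.5%. The 3 factors thus met at 9 of 9 Nkx promoters and at the promoters of 3508 genes in all, or 13.4%. Each member had exactly 1 curated TSS and exactly 1 peak of each list over its promoter, and the TSS base itself lay under that peak in every case. Of the 9 genes 8 are read from the minus strand, and the genes lie on 6 chromosomes.

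The peaks at the Nkx genes were long. The RING1B peak had a median width of 17425 bp over the 9 members, with a range of 9043 to 26580 bp, while the median over the 13922 genes with RING1B at a promoter was 1810 bp and that over the genes with all 3 factors was 4918 bp. For SUZ12 the members had a median of 19995 bp (8734 to 27496 bp), against 3232 bp over the 6487 genes with SUZ12 and 5394 bp over the genes with all 3. For PCGF2 the median was 16507 bp (6506 to 23695 bp), against 2912 bp over the 3522 genes with PCGF2 and 2914 bp over the genes with all 3. The members' median was therefore 3.54 times that of the genes with all 3 factors for RING1B, 3.71 times for SUZ12 and 5.66 times for PCGF2. Every member lay above the upper quartile of the genes with all 3 factors in each list.

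**Figure D1:**
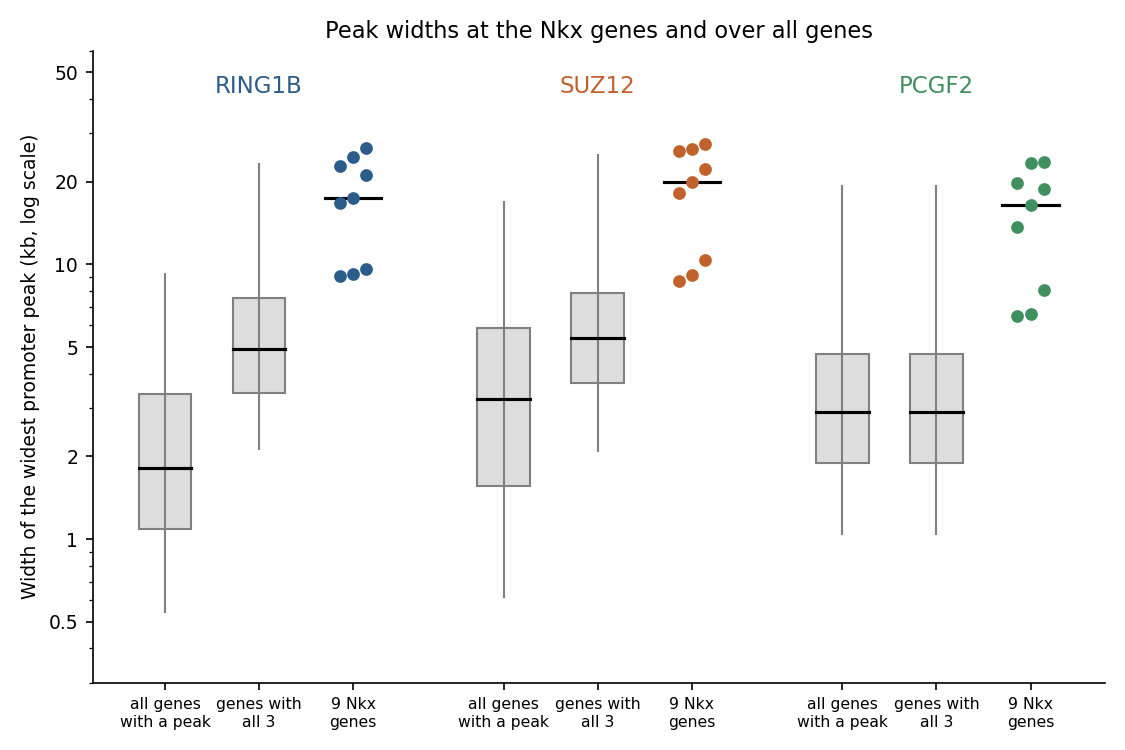
Width of the widest promoter peak in kb (log axis) for RING1B, SUZ12 and PCGF2. Each point is 1 of the 9 Nkx genes and the bar beside the points is their median. Grey boxes give the quartiles and median, and lines the 5th to 95th percentile, over all genes with that peak and over the 3508 genes with all 3 factors. The points fall into a group of 6 wide and a group of 3 narrower domains in every list, and all lie above the upper quartiles.

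Domains of 2 sizes could be seen among the members. For RING1B, 6 genes had peaks of 16741 to 26580 bp (Nkx2-3, Nkx2-1, Nkx2-5, Nkx2-2, Nkx3-2 and Nkx6-1). A further 3 genes had peaks of 9043 to 9663 bp (Nkx6-2, Nkx2-4 and Nkx2-9), with no member between. The gap holds for these 9 genes only, since Nkx1-1 (12155 bp) and Nkx1-2 (10308 bp), outside the set, had RING1B widths within it. The same 3 genes were the narrowest in the SUZ12 list, at 8734 to 10406 bp, and in the PCGF2 list, at 6506 to 8107 bp. Across the 9 members the order of RING1B widths was close to that of PCGF2 (Spearman's rho 0.95) and of SUZ12 (0.80), where each list has samples of its own but all rest on PRC1CPM cells. The order followed gene length less closely (rho 0.55). These correlations describe 9 genes and were not tested.

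Nkx2-3, a regulator of spleen and gut development, had the widest RING1B peak of the members. The gene lies at chr19:43612325-43615892 on the plus strand, and its RING1B peak at chr19:43595287-43621866, 26580 bp long, was the 42nd widest of the 18643 in the list. The SUZ12 peak at chr19:43594354-43621849 was 27496 bp long and the PCGF2 peak at chr19:43596850-43620342 was 23493 bp long. Most of the domain lay before the gene, since RING1B reached 17038 bp upstream of the TSS and 9541 bp downstream, although the gene itself is 3568 bp long. No other curated TSS lay under the peak.

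Nkx2-1, which directs development of the thyroid, lung and ventral forebrain, had a domain of similar size that lay mostly on the other side of the start. The gene is at chr12:56531935-56536908 on the minus strand. RING1B covered chr12:56516934-56541516, or 24583 bp, SUZ12 covered chr12:56516766-56542716, or 25951 bp, and PCGF2 covered chr12:56517604-56541298, or 23695 bp, the longest PCGF2 peak of the 9. RING1B reached 4608 bp upstream and 19974 bp downstream of the TSS, running 15001 bp past the end of Nkx2-1. This part of the domain holds the TSS of Sfta3-ps, a pseudogene beside Nkx2-1, and the far edge of all 3 peaks lay in an intron of Sfta3-ps.

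Nkx2-5, an early regulator of the heart, combined a gene of 2901 bp (chr17:26838665-26841565, minus strand) with a RING1B peak of 22761 bp at chr17:26834392-26857152. Its SUZ12 peak at chr17:26835285-26855279 was 19995 bp long and its PCGF2 peak at chr17:26835011-26853907 was 18897 bp long. As at Nkx2-3 the domain lay mainly upstream, with 15587 bp of the RING1B peak before the TSS and 7173 bp after it. Nkx2-5 was the member whose RING1B peak was longest relative to the gene, at 7.85 times its length.

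Nkx2-2, needed for ventral neural tube and pancreatic islet cells, is the longest gene of the set (chr2:147177546-147186402, minus strand, 8857 bp). RING1B lay at chr2:147177675-147198839 (21165 bp), SUZ12 at chr2:147177959-147200164 (22206 bp) and PCGF2 at chr2:147177905-147197680 (19776 bp). This was the only member whose gene body was not wholly covered by RING1B, with 98.5% of it under the peak, which stopped 129 bp before the gene's end in the last exon. The peak reached 12437 bp upstream of the TSS. Over its whole length it also held the starts of the noncoding genes Nkx2-2os and 6430503K07Rik. Because Nkx2-2os is transcribed from the other strand and ChIP-seq carries no strand, the peak cannot be assigned to either gene alone.

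Nkx3-2, which acts in the axial skeleton, had a RING1B peak of 17425 bp at chr5:41751323-41768747, a SUZ12 peak of 18138 bp at chr5:41750753-41768890 and a PCGF2 peak of 16507 bp at chr5:41752095-41768601. The gene, at chr5:41761483-41764220 on the minus strand, is 2738 bp long, and RING1B ran 10160 bp past its end. Only 1410 bp beyond that edge a second RING1B peak began, of 4377 bp at chr5:41745536-41749912, which overlapped no SUZ12 and no PCGF2 peak. Another, of 662 bp, followed at chr5:41744054-41744715, again with neither.

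Nkx6-1, a regulator of pancreatic beta cells and motor neuron progenitors, was the member at which the lists differed most. The gene lies at chr5:101659184-101664711 on the minus strand. RING1B covered chr5:101653677-101670417 (16741 bp) and PCGF2 chr5:101656014-101669752 (13739 bp), but SUZ12 formed a single peak of 26235 bp at chr5:101644473-101670707, 1.57 times as wide as RING1B. At its far side the SUZ12 peak ran 9204 bp further downstream than RING1B. That stretch held a separate RING1B peak of 5413 bp (chr5:101645765-101651177), 2499 bp away from the first, and a separate PCGF2 peak of 2671 bp (chr5:101646227-101648897). The far stretch thus held peaks of all 3 factors, and the lists differed in whether the space between was called.

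The 3 narrower domains lay more evenly about the start. Nkx6-2, expressed in neural progenitors and oligodendrocytes, lies at chr7:139579376-139582797 on the minus strand and had peaks of 9663 bp for RING1B (chr7:139576865-139586527), 10406 bp for SUZ12 (chr7:139577164-139587569) and 6594 bp for PCGF2 (chr7:139579177-139585770). Its downstream edges lay in the neighbouring gene Inpp5a, in an intron for RING1B and SUZ12 and in an exon for PCGF2. Nkx2-4, a close relative of Nkx2-1, lies at chr2:147083876-147085345 on the minus strand and is the shortest gene, at 1470 bp. Its peaks were 9266 bp for RING1B (chr2:147080562-147089827), 8734 bp for SUZ12 (chr2:147080380-147089113) and 8107 bp for PCGF2 (chr2:147081060-147089166). Nkx2-9, which acts in the ventral neural tube, lies at chr12:56611393-56613284 on the minus strand, with peaks of 9043 bp for RING1B (chr12:56609594-56618636), 9149 bp for SUZ12 (chr12:56609484-56618632) and 6506 bp for PCGF2 (chr12:56609670-56616175). In RING1B the share of the peak before the TSS was 38.6% at Nkx6-2, 48.4% at Nkx2-4 and 59.2% at Nkx2-9, whereas among the 6 wide domains it ran from 18.7% at Nkx2-1 to 68.5% at Nkx2-5, and only Nkx2-2, at 58.8%, came as close to an even split. Even these narrower RING1B peaks were wider than those of 94.8% to 95.2% of the genes with RING1B.

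**Figure D2:**
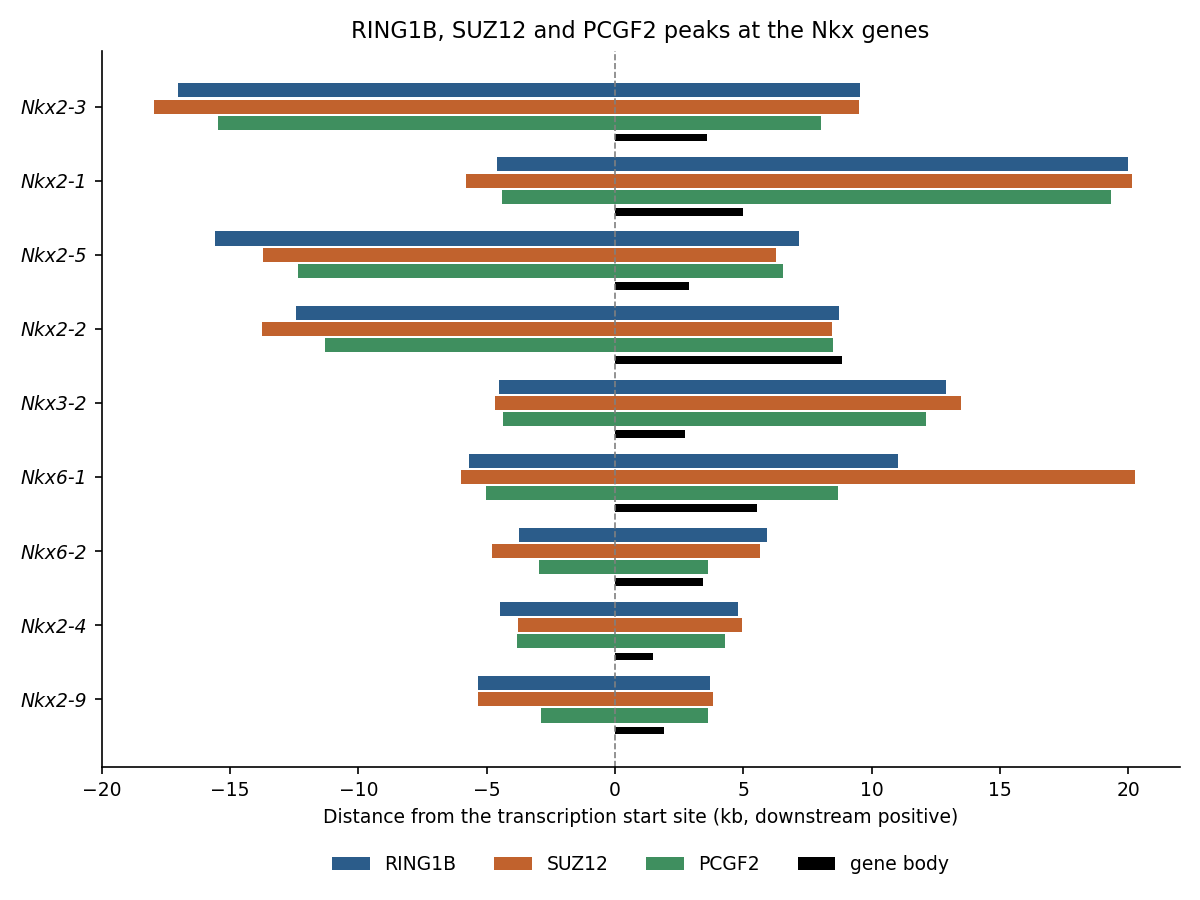
Extent of the RING1B, SUZ12 and PCGF2 peak at each Nkx gene, in kb from the TSS with downstream positive, and the gene body in black. Genes are ordered by RING1B width. The peaks run past both ends of the gene body at 8 of 9 genes, Nkx2-3, Nkx2-5 and Nkx2-2 reach far upstream, and Nkx2-1, Nkx3-2 and Nkx6-1 reach far downstream.

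The domains covered whole genes at 8 of 9 members in each list. Among the genes with all 3 factors 17.0% were wholly covered by RING1B, 16.5% by SUZ12 and 11.9% by PCGF2. The members are short genes, with a median length of 3422 bp (1470 to 8857 bp), against 30650 bp over the genes with all 3, and the part of gene length in this difference was not tested. The RING1B peak was between 2.39 times (Nkx2-2) and 7.85 times (Nkx2-5) as long as the gene. It reached further upstream than downstream of the TSS at 4 of 9 members (Nkx2-2, Nkx2-3, Nkx2-5 and Nkx2-9), and at 27.2% of the genes with all 3 factors. The median reach of RING1B was 5352 bp upstream and 8727 bp downstream at the members, against 1923 and 2849 bp over the genes with all 3.

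To see how the complexes lay relative to each other, the edges of the peaks were compared. PCGF2 lay inside the RING1B peak at 9 of 9 members, and at 94.0% of the genes with all 3 factors. Its edges fell short of RING1B by between 146 bp (Nkx3-2) and 3245 bp (Nkx2-5) upstream and between 76 bp (Nkx2-9) and 2337 bp (Nkx6-1) downstream. The PCGF2 peak was a median of 0.87 times as wide as RING1B at the members, from 0.68 at Nkx6-2 to 0.96 at Nkx2-1. Over the genes with all 3 the median was 0.64. In bp the edges differed less between the sets. The median PCGF2 edge relative to RING1B was -757 bp upstream and -670 bp downstream at the members (negative is short of RING1B). Over the genes with all 3 it was -797 and -833 bp. The part of the wider RING1B peaks in the ratio was not tested. PCGF2 lay inside the SUZ12 peak at 6 of 9 members, against 85.2%, with the exceptions Nkx2-2, Nkx2-4 and Nkx2-5, where 1 edge ran past SUZ12 by 54, 53 and 274 bp.

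The distance between the SUZ12 and RING1B edges varied between the members. The SUZ12 peak was wider than RING1B at 7 of 9 members, with Nkx2-4 (0.94 times) and Nkx2-5 (0.88 times) as the exceptions, and 66.7% of the genes with all 3 factors had the wider peak in SUZ12. It lay wholly inside RING1B at 1 of 9 members, Nkx2-5, and at 17.3% of the genes with all 3. The closest edges were those of Nkx2-9, 4 bp apart upstream and 110 bp apart downstream, and the downstream edges of Nkx2-3, 17 bp apart. The upstream edges of Nkx2-3 were 933 bp apart. Leaving aside Nkx6-1, the larger of the edge differences between SUZ12 and RING1B was 110 to 1873 bp. The sequence common to all 3 peaks was 85.2% of that under any of them at the median member, from 52.4% at Nkx6-1 to 91.3% at Nkx2-1. Over the genes with all 3 factors that median was 53.1%, and over the 659 of them with a RING1B peak at least as wide as that of Nkx2-9 (the members included) it was 71.8%.

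**Figure D3:**
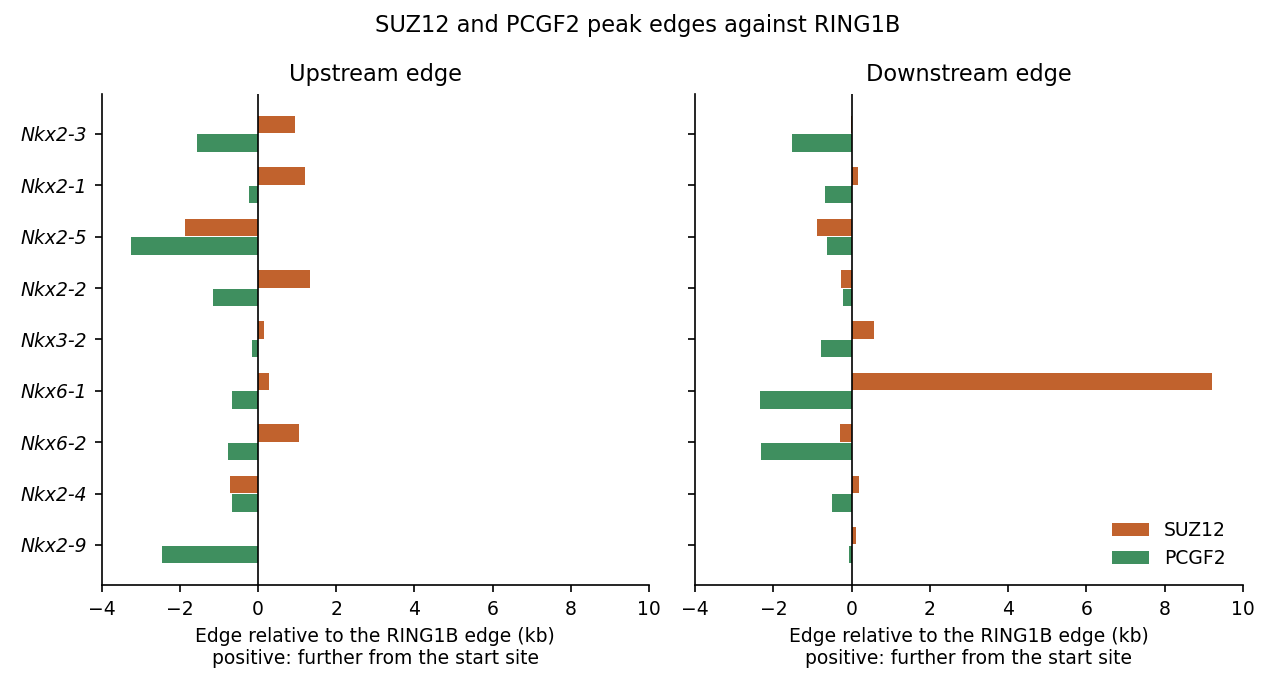
Upstream and downstream edges of the SUZ12 and PCGF2 peaks relative to the RING1B edge at each Nkx gene, in kb, with positive values further from the TSS. PCGF2 is short of RING1B at every edge, by 76 to 3245 bp, SUZ12 lies on either side, and the downstream SUZ12 edge of Nkx6-1 stands apart at 9204 bp.

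To ask which sequence the domains cover, CpG content was read from the genome. The CpG observed/expected ratio within 500 bp of the TSS, which is the number of CG dinucleotides times the window length over the C count times the G count, had a median of 0.670 over the members, against 0.512 over all genes and 0.713 over the genes with all 3 factors. It was highest at Nkx2-4 (0.993), Nkx6-2 (0.978) and Nkx6-1 (0.943), and lowest at Nkx2-9 (0.528), Nkx2-3 (0.571) and Nkx2-5 (0.593). The order of promoter CpG content was not that of width, as Nkx2-3, the widest, was among the lowest, and Nkx2-4, among the narrowest, was the highest. Over the whole RING1B peak the ratio was lower than at the TSS in all 9 members, between 0.370 at Nkx2-9 and 0.717 at Nkx2-4. The median over the peak was 0.464 at the members. It was 0.493 over the genes with all 3 factors, likewise below their median at the TSS.

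The wide domains held many CpG-rich stretches rather than 1 long island. A stretch was a run of 200-bp windows each with at least 50% GC and a CpG observed/expected ratio of at least 0.6. The RING1B peak held 18 stretches at Nkx2-2, 14 at Nkx2-1, 12 at Nkx2-3 and at Nkx3-2, 9 at Nkx2-5 and at Nkx6-1, 4 at Nkx6-2, 3 at Nkx2-9 and 1 at Nkx2-4. At Nkx2-4 that stretch was 2163 bp long, contained the TSS and made up 23.3% of the RING1B peak. At Nkx2-1 no stretch contained the TSS and the longest was 1212 bp. The stretches together took up between 20.3% (Nkx2-9) and 56.9% (Nkx6-2) of the RING1B peak, with a median of 32.4%. The 659 genes with all 3 factors and a RING1B peak at least as wide as that of Nkx2-9 had medians of 31.1% and 8 stretches, beside 32.4% and 9 at the members.

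The peaks also ran past the outermost CpG-rich stretches. Between the upstream RING1B edge and the first stretch lay 0 bp at Nkx3-2 and 147 bp at Nkx2-1, but 3784 to 4105 bp at Nkx2-3, Nkx2-4, Nkx2-5 and Nkx2-9. On the downstream side the distance ran from 71 bp at Nkx2-2 to 4815 bp at Nkx2-3. The medians were 3174 bp upstream and 2825 bp downstream at the members, and 1989 and 2144 bp over the genes with like domains. Beyond the main domain, the second RING1B peak downstream of Nkx6-1 held 1 CpG-rich stretch of 1157 bp, whereas the second RING1B peak downstream of Nkx3-2, which had neither SUZ12 nor PCGF2, held 0 and had a CpG observed/expected ratio of 0.186.

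**Figure D4:**
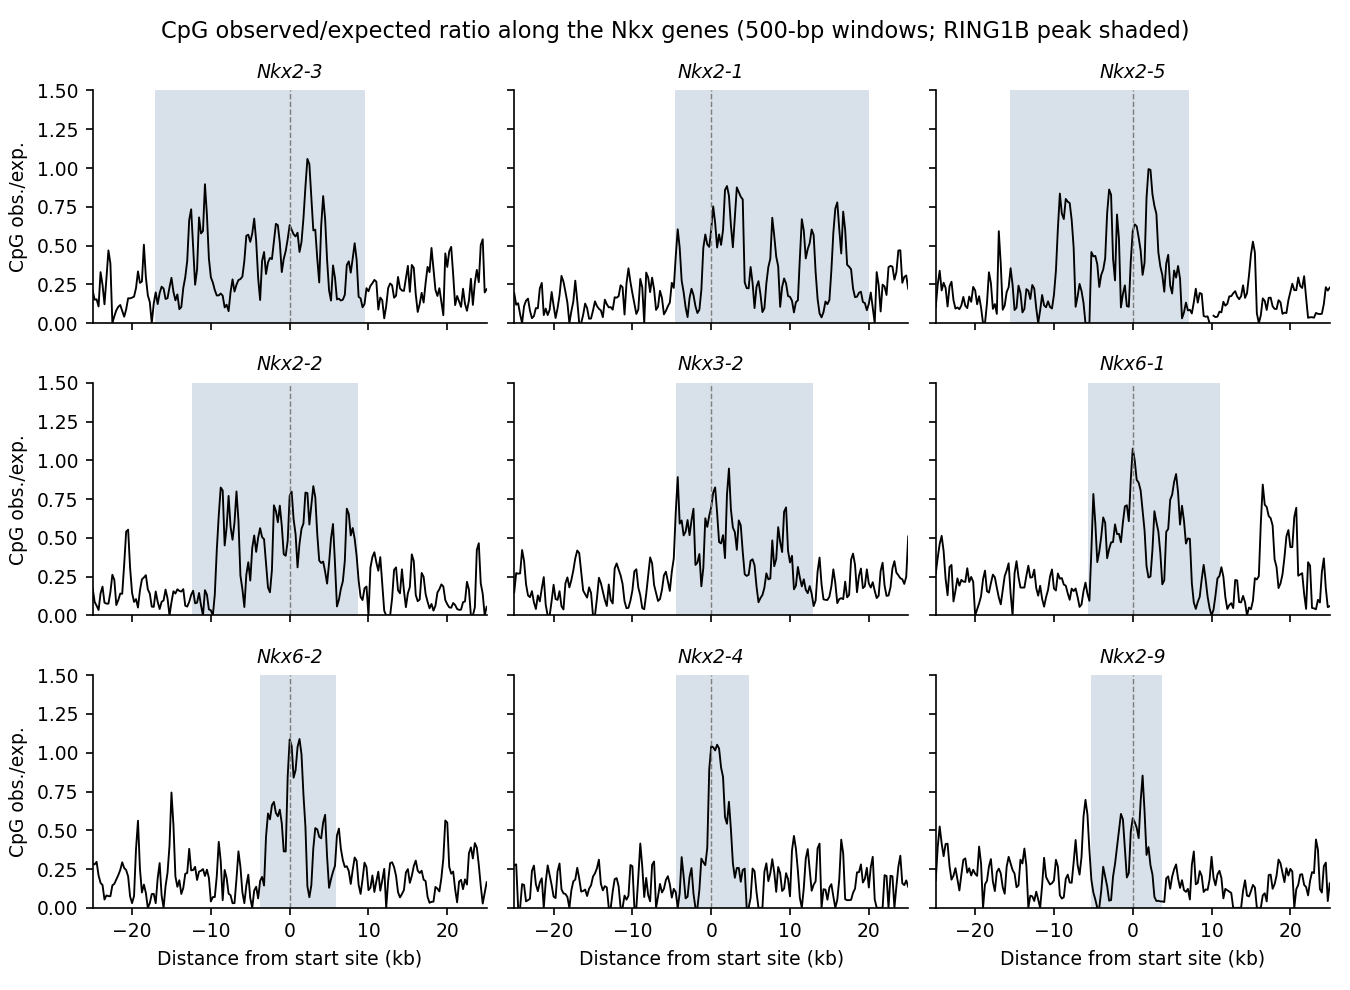
CpG observed/expected ratio in 500-bp windows within 25 kb of the TSS of each Nkx gene (downstream positive), with the RING1B peak shaded. Several CpG-rich maxima lie under the wide RING1B peaks and a single maximum of 2163 bp lies under that of Nkx2-4. Further maxima lie beyond the shaded peaks of several genes, and the highest of these, 0.844, is at Nkx6-1.

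Among the members 2 pairs are neighbours. Nkx2-1 and Nkx2-9 are on chromosome 12 with their starts 76.4 kb apart, and Nkx2-4 and Nkx2-2 are on chromosome 2 with their starts 101 kb apart. In both pairs a wide and a narrow domain stood side by side. The RING1B peak was 2.72 times as wide at Nkx2-1 as at Nkx2-9, and 0.44 times as wide at Nkx2-4 as at Nkx2-2. The space between the RING1B peaks was 68.1 kb in the first pair and 87.8 kb in the second, and it held 0 peaks of any of the 3 lists. Each member was thus the closest bound site of the other for SUZ12 and PCGF2, except that for Nkx2-9 the peaks at or beside Pax9, a regulator of axial skeleton and pharyngeal pouches, lay closer. The RING1B peak at Pax9 was 24491 bp long and 60.9 kb away from that of Nkx2-9. Nkx3-2 and Nkx6-1 share chromosome 5 but lie 59900491 bp apart.

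The 100 kb on each side of the TSS were searched for further peaks. The number of RING1B peaks, the member's own included, had a median of 3 and a range of 1 to 6, equal to the median of 3 over all genes and over the genes with all 3 factors. For SUZ12 the median was 2 at the members, 1 over all genes and 2 over the genes with all 3, and for PCGF2 it was 2, 0 and 1. The RING1B peaks, the gene's own again included, covered a median of 12.96% of that window, against 2.35% over all genes and 4.58% over the genes with all 3 factors. This share thus carries the width of the gene's own peak, which at Nkx6-2 made up the whole 4.83%. Apart from the peaks at the members themselves, 19 RING1B peaks lay in these windows, of which 14 overlapped neither SUZ12 nor PCGF2. These 14 were short, with a median of 1477 bp and a range of 317 to 4377 bp, and 9 of them were within 2500 bp of a curated TSS, such as those of Xrn2, Bnip1 and Rab28. For SUZ12 there were 4 further peaks and for PCGF2 also 4, and every one of them overlapped another list. Nkx6-2 stood alone, with 0 further peaks of any list in its window.

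For 4 other Nkx genes the median RING1B width was 8607 bp, against 17425 bp at the members, and 3 of the 4 had all 3 factors at the promoter. Nkx1-1 had a RING1B peak of 12155 bp, a SUZ12 peak of 11884 bp and a PCGF2 peak of 9591 bp. Nkx1-2 had 10308, 12584 and 6442 bp, and Nkx2-6, a heart and pharyngeal relative of Nkx2-5, had 6906, 6922 and 6029 bp in the same order. Nkx6-3 was the exception in position. It had 2 RING1B peaks at the promoter, and the wider of them, of 3634 bp, began 1956 bp downstream of the TSS, and no PCGF2 peak lay at the promoter.

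Genes that work with the Nkx factors in the same tissues mostly had the same 3 factors at their promoters. Of 14 genes of ventral neural tube patterning, 14 had RING1B, 14 had SUZ12 and 13 had PCGF2, with Gli1, a transcription factor of Hedgehog signalling, as the gene without PCGF2, and a median RING1B width of 14719 bp. All 8 cardiac transcription factors had all 3, with a median of 17368 bp and the widest peak at Hand2 (45577 bp), a regulator of the right ventricle and limb. Of 9 pancreatic factors 8 had RING1B, 9 had SUZ12 and 8 had PCGF2, with a median of 11295 bp and the widest peak at Pdx1 (13945 bp), a master regulator of the pancreas. Pax4, a beta cell regulator, was the only gene of these lists with no RING1B peak at a promoter. All 6 thyroid and lung factors had RING1B and 5 had SUZ12 and PCGF2, with a median of 7596 bp and the widest at Foxa1 (21170 bp). Sox2, a pluripotency factor that ESCs express, was the gene without SUZ12 or PCGF2. All 6 axial skeleton factors had RING1B and SUZ12 and 5 had PCGF2, with a median of 16769 bp, the widest at Uncx (26854 bp), and Meox1 lacking PCGF2. In the ventral neural tube list the widest peak was at Pax6 (36477 bp). Together 42 of 43 of these genes had RING1B and 39 had all 3 factors, read against the shares of 53.2% and 13.4% over all genes.

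**Figure D5:**
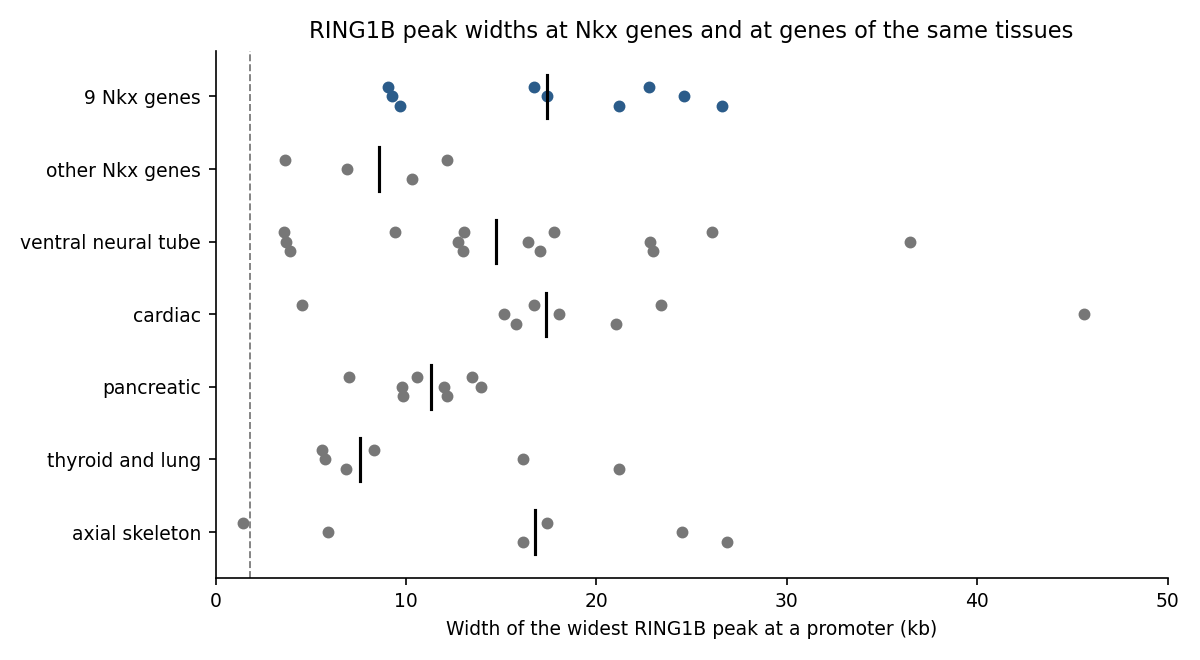
Width in kb of the widest RING1B peak at a promoter for the 9 Nkx genes (blue), 4 other Nkx genes and 5 lists of genes of the same tissues (grey). Each point is a gene, black bars are medians and the dashed line is the median over all genes with RING1B, 1810 bp. The medians of the Nkx, cardiac and axial skeleton genes lie close together at 16769 to 17425 bp.

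The genes outside the set whose promoter peaks were most like the members' were found from the log2 widths of the RING1B, SUZ12 and PCGF2 peaks, as the distance to the members' medians over the 3 lists. The 5 closest were Pax1 and AI646519, which share their peaks, then Tbx1, Gata2 and Wnt5a. At Pax1 the RING1B peak was 17392 bp, the SUZ12 peak 20979 bp and the PCGF2 peak 16165 bp (distance 0.08). The distance was 0.11 for each of Tbx1, Gata2 and Wnt5a, whose RING1B peaks were 17118, 18606 and 18733 bp wide. Likeness here is of width alone.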

How the data were processed

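The members and gene lists were chosen with earlier results of these data known. The authors aligned the cChIP-seq read pairs with Bowtie 2 (mm10 plus the human spike-in genome), dropped duplicates and used MACS2 with Input as control to call broad peaks. RING1B and SUZ12 peaks came from merged replicates and were kept where both lines had them, RING1B peaks had in addition to lose signal on tamoxifen in PRC1CKO cells, and PCGF2 peaks had to occur in every PRC1CPM replicate. Each deposited list gives peak start and end positions (bp) and no height, depth or replicate. Samples were grouped by their labels.

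Peaks were set against curated RefSeq transcripts of GRCm38.p6, the assembly of mm10, with coordinates from base 1. An overlap of 1 bp counted, and the widest peak over a promoter stood for the gene. Named were all members, 4 other Nkx genes, of each further list the gene with the widest RING1B peak and those without RING1B, genes with a TSS under a member's peak, and the 5 genes most alike in width. Genes lacking SUZ12 or PCGF2, Pax9 and examples of nearby promoters were named after their values were seen. Homeodomain sequences are not printed. Of the gene lists, 2 genes are not reported here and were left out of the lists' counts and medians. The overlap code was checked on seeded intervals against a direct search. Python 3.11.15, NumPy 2.4.6, SciPy 1.17.1, pysam 0.24.0 and matplotlib 3.10.9 were used.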

Additional observations from a re-analysis of the deposited data

How the results depend on the processing

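No paired analysis was possible because the peak lists carry no replicates. Likewise no library could be left out. The 11 results were recomputed under 98 alternatives for the promoter, the transcripts, the peaks kept or merged and the sequence window. Of these, 94 stayed within 1.5 times the reported count or 5% of the reported median, and 92 gave the identical value. Many of them could not change a value, because each member has 1 curated TSS and 1 long peak of each list over it. Settings that vary the TSS used, the promoter width, the smallest peak kept or the summing of peaks are of this kind. The tally is therefore no measure of how robust the results are. The median RING1B width rose to 22761 bp when peaks within 3000 bp were merged, since further peaks then join those at Nkx6-1 and Nkx3-2. The median CpG observed/expected ratio was 0.625 within 2500 bp of the TSS and 0.464 over the whole RING1B peak. With an allowance of 250 bp at the ends, 3 members had SUZ12 inside RING1B in place of 1. The lists give no depth, so a weakly bound site that was not called cannot be told apart from an unbound one.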

Other observations

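The Hmx genes, homeobox regulators of the inner ear and hypothalamus that are also known as the NK5 family, were looked up after the values of the Nkx genes were seen. All 3 had RING1B, SUZ12 and PCGF2 at the promoter. The RING1B peak was 22686 bp wide at Hmx1, and Hmx2 and Hmx3 shared a RING1B peak of 20956 bp, so all 3 lay within the range of the 6 wide Nkx domains.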
